A study of Mus musculus with 288 samples.

Results

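The 10 genes described here encode SR splicing factors (Srsf1, Srsf2, Srsf3, Srsf5, Srsf6 and Srsf7) and the CDC-like kinases that phosphorylate them (Clk1, Clk2, Clk3 and Clk4). They were chosen by name, 6 SR proteins and 4 kinases, 10 of the 35904 genes measured, and all 10 were detected in every tissue. SR proteins are RNA-binding proteins with a tail rich in arginine and serine. They sit on exonic enhancer sequences, recruit the splicing machinery, and later accompany many mRNAs out of the nucleus. SR protein kinases (SRPK) phosphorylate the tail in the cytoplasm, and CLK kinases phosphorylate it further in the nucleus, which releases SR proteins from nuclear speckles. CLK activity is known to rise when body temperature falls, and both families limit their own output: SR genes carry cassette exons that lead to nonsense-mediated decay, and Clk1 and Clk4 keep a nuclear pool of transcripts with retained introns.

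RNA was sequenced from the lung, liver, kidney, skeletal muscle, heart and cerebellum of male C57BL/6J mice aged 8 weeks, kept for 7 days in normoxia (21% oxygen) or in intermittent hypoxia (IH), in which oxygen cycled between 21% and 8% during the inactive phase. Both groups then spent 2 days in constant darkness under normoxia, so no animal was in hypoxia at collection. Tissues were taken every 3 hours at 8 time points (1:30 to 22:30, as labelled), with 3 replicate mice per time point and treatment, which gives 24 libraries per tissue and treatment in all 6 tissues. Per the study's methods the organs of a time point and treatment came from one set of 3 mice, but the labels do not tie libraries to mice, so comparisons between tissues treated all libraries as independent. Values are relative transcript abundances (TPM), which are corrected for transcript length and can be compared between genes. Read numbers cannot be recovered from them, so the sequencing depth of each library is not known here. In bulk tissue fewer cells of a type and less RNA per cell cannot be told apart.

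Clk4 lies at chr11:51261730-51281766 (mouse GRCm38, plus strand) and Clk1 at chr1:58410189-58424066 (minus strand), in GENCODE release 21. Clk2 lies at chr3:89164795-89176921 (plus) and Clk3 at chr9:57750624-57765860 (minus). Of the SR genes, Srsf1 (chr11:88047373-88053755, plus) and Srsf2 (chr11:116849901-116853094, minus) share a chromosome with Clk4, and Srsf3 (chr17:29032628-29043373, plus) and Srsf7 (chr17:80200080-80207307, minus) share another. Srsf5 lies at chr12:80945504-80950507 (plus) and Srsf6 at chr2:162931528-162937121 (plus). Most annotated transcripts of these genes are not plain coding mRNAs: of 94 transcripts, 31 are protein coding, 36 have a retained intron and 16 are marked for nonsense-mediated decay. Clk1 has 13 transcripts, of which 1 is protein coding and 7 retain an intron, and Clk4 has 14, of which 4 are coding and 7 retain an intron. A gene's TPM sums all of its transcripts, so the values below do not separate coding from retained-intron RNA. Exons of Srsf2 overlap those of Mfsd11 and Mettl23 on the opposite strand, exons of Srsf1 those of Gm11508, and exons of Clk3 those of Edc3. Exons of Clk4 overlap Gm25082 on the same strand.

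Because Clk4 and Clk2 moved most in the lung, the stretches of promoter that matched a searched motif are shown for them and for Srsf6, from RefSeq (GRCm38.p6). The 250 bases before the start were searched on both strands in 9 of the 10 genes for the E-box CACGTG and its core ACGTG (each CACGTG also holds ACGTG), the D-box TTATGTAA, the cyclic AMP response element TGACGTCA, and the heat shock element pairs GAANNTTC and TTCNNGAA. The motif is in capitals, each window has 30 bases, and the genes and windows shown are on the plus strand:
Clk4, chr11:51263038-51263067: cccgccgtcccTGACGTCAcagacccctcg
Clk2, chr3:89164624-89164653: agactcaacaaaCACGTGacaagctccgag
Clk2, chr3:89164765-89164794: agaggctgggaagtgacgcaggACGTGcgt
Srsf6, chr2:162931431-162931460: gcgcgggagaggACGTGctgcgcgacgacg
The TGACGTCA of Clk4 begins 65 bases before the RefSeq start, which lies inside the gene as GENCODE draws it, and 1.55% of all 32851 promoter windows hold that motif. CACGTG occurs in Clk2 alone among the 9 and in 6.02% of all windows, and ACGTG in Srsf6, Clk2 and Clk3 and in 16.6% of all. The searched window of Clk3 (chr9:57765115-57765364) also lies inside the gene as GENCODE draws it. TTATGTAA (0.819% of all windows), GAANNTTC (6.69%) and TTCNNGAA (7.17%) were in none of the 9. These matches describe the letters only.

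Each tissue expressed its own marker list, but some libraries stood apart. In the library labelled liver, IH, 13:30, replicate 2, the 6 liver markers summed to 1015 TPM against 18376 to 58899 in the other liver libraries after IH, and the 6 heart markers to 6578 TPM against 22.6 to 48.3. In the library labelled cerebellum, IH, 1:30, replicate 3, cerebellar markers summed to 352 TPM (median over the tissue 3423) and heart markers to 7440.3 TPM. The heart normoxia libraries of 7:30 and 19:30, both replicate 3, correlated least with the other heart libraries (mean r of 0.827 and 0.876, where the median library had 0.963). Changes after IH, levels against other tissues and differences between tissues were also computed without these and the other libraries of a mean r under 0.9, while the rhythm tests include them. The number of genes above 0 TPM also differed between treatments: in the lung it was 22694 ± 737 in normoxia and 25455 ± 1529 after IH, and in the heart 25124 ± 1719 and 21447 ± 688 (SD, n = 24 each).

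In normoxia, each gene was highest in the lung or cerebellum and lowest in the liver or muscle (plot of levels by tissue). Srsf5 was the most abundant in the lung, with 275 ± 61.5 TPM, and Clk2 the least abundant of the 10 in every tissue, from a mean of 6.00 TPM in the liver to 25.1 TPM in the lung (SD of 2.25, n = 24). Srsf2, a splicing activator of nuclear speckles, reached 251 ± 64.2 TPM in the cerebellum, 137 ± 25.3 in the lung and 65.4 ± 11.4 in the liver. Clk1 had the widest range between tissues, 6.45-fold between the cerebellum (157 ± 59.7 TPM) and the liver (24.4 ± 6.51 TPM), and Srsf6 the narrowest, 2.28-fold. The order from high to low was cerebellum, lung, kidney, heart, muscle, liver for Srsf2, Srsf3 and Srsf7. It was lung, cerebellum, kidney, heart, muscle, liver for Srsf1, with the liver above the muscle for Srsf5 and, in addition, the kidney above the cerebellum for Srsf6. Clk1 ran cerebellum, lung, heart, kidney, muscle, liver, Clk4 the same with muscle above kidney, Clk2 lung, cerebellum, muscle, heart, kidney, liver, and Clk3 cerebellum, lung, muscle, kidney, heart, liver. Most neighbours in these orders overlapped within 1 SD, all 5 neighbouring pairs for Srsf1, Srsf5, Srsf6 and Clk4. The pairs apart by more than their SDs were cerebellum above lung for Srsf2, lung above kidney and muscle above liver for Srsf3, lung above kidney for Srsf7, lung above heart for Clk1, lung above cerebellum for Clk2, and muscle above kidney for Clk3.

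**Figure D1:**
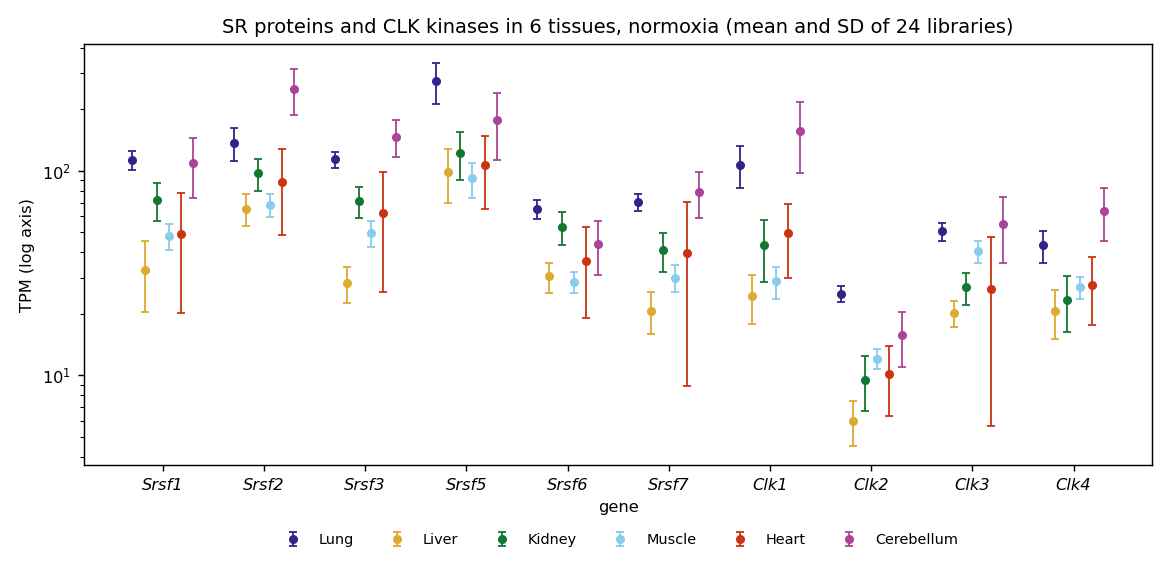
Level of each gene in normoxia in TPM (log axis), with 1 point per tissue at the mean of 24 libraries and bars of 1 SD. Lung and cerebellum hold the highest means for all 10 genes but Srsf6, and Clk2 lies lowest in every tissue.

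After scaling of libraries across tissues, fewer differences remained. Each tissue was set against the mean of the other 5 with limma (adjusted p of at most 0.05 and 1.5-fold). The cerebellum stood out for 4 of the 10 genes, beside 63.8% of all genes tested: Clk1 was 2.37-fold higher there (log2 difference 1.25 ± 0.08, SE, adjusted p = 2.49e-31), Srsf2 1.93-fold, Srsf3 1.71-fold and Clk4 1.56-fold. Srsf3 was lower in the liver (1.54-fold), Clk4 in the kidney (1.52-fold) and Clk1 in the muscle (1.86-fold), 1 gene of 10 in each, where 60.8%, 52.8% and 48.2% of all genes were called. None of the 10 was called in the lung (57.1% of all genes) or in the heart (42.9%), although 7 of the 10 in the lung and 7 in the heart had an adjusted p of at most 0.05 without the 1.5-fold, the same counts as at an unadjusted p of at most 0.05. Without the libraries of a mean r under 0.9 the same calls were made, and Srsf7 in the cerebellum was called as well (log2 difference 0.60). On TPM as deposited 8 of 10 were called in the lung, so the level of the lung against other tissues rests on the scaling.

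In the lung, 7 of the 10 genes rose after IH, Srsf3 fell, and Srsf2 and Srsf7 did not pass the test. The largest change was that of Clk4. The counts stand beside 28.9% of all 15426 genes tested that rose and 41.5% that fell there, 70.4% in all. With a 1.5-fold change required as well, Clk4 alone remained, beside 2079 of the 15426 genes. The median change of the 10 genes was 0.34 on the log2 scale of scaled TPM, against -0.08 over all genes tested. Ranges, medians and counts of libraries below, for the lung and the other tissues, are on TPM as deposited. Without the scaling the median change of all lung genes was 0.21. These values are therefore not on the scale of the log2 changes beside them.

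Among the kinases of the lung, Clk4 ranged in normoxia from 32.6 to 61.9 TPM with a median of 41.6, and after IH from 51.8 to 192 with a median of 86.4. The groups overlapped, but 20 of the 24 IH libraries lay above the highest normoxia library. The log2 change on scaled TPM was 0.79 ± 0.11 (SE, n = 24 per treatment, limma adjusted p = 3.98e-08), or 1.73-fold. Clk2, which also phosphorylates SR proteins in the nucleus, showed the clearest separation: 19.7 to 29.5 TPM in normoxia (median 25.0) and 28.8 to 93.6 after IH (median 44.0), with 23 of 24 IH libraries above all of normoxia and a log2 change of 0.58 ± 0.06 (adjusted p = 5.02e-11). Clk1, the closest relative of Clk4, ranged from 75.7 to 162 TPM in normoxia (median 100.1) and from 116 to 377 after IH (median 167). Its log2 change was 0.52 ± 0.12 (adjusted p = 0.000187), and 13 IH libraries exceeded all of normoxia. Clk3 changed least of the kinases, by 0.17 ± 0.06 (adjusted p = 0.0117), from a median of 49.6 to 68.8 TPM.

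Among the SR proteins of the lung, Srsf5, which acts in exon inclusion and in mRNA export, had the highest level. It ranged from 158 to 410 TPM in normoxia (median 285) and from 214 to 832 after IH (median 462), with 17 of 24 IH libraries above all of normoxia and a log2 change of 0.48 ± 0.12 (adjusted p = 0.00029). Srsf1, the founding member of the family, went from a median of 116 TPM (86.0 to 131) to 175 TPM (123 to 271), and 22 of 24 IH libraries lay above all of normoxia. Its log2 change was 0.35 ± 0.05 (adjusted p = 1.4e-08). Srsf6 rose by 0.33 ± 0.07 (adjusted p = 5.3e-05), from a median of 63.9 to 98.0 TPM. For Srsf2 the log2 change was 0.16 ± 0.09 (adjusted p = 0.116) and for Srsf7, an export adaptor, 0.07 ± 0.07 (adjusted p = 0.417). Even for Srsf7, 12 of the 24 IH libraries lay above all of normoxia on TPM as deposited. Srsf3, also an export adaptor, is the member whose direction rests on the scaling. It fell by 0.19 on the scaled log2 scale (SE 0.04, adjusted p = 0.000136) and was lower at 8 of 8 time points there, whereas its mean TPM as deposited was higher after IH, at 124 ± 17.1 against 114 ± 10.2 (SD). Without the scaling its log2 change was 0.12 (adjusted p = 0.039), and the median of all lung genes moved from -0.08 to 0.21.

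**Figure D2:**
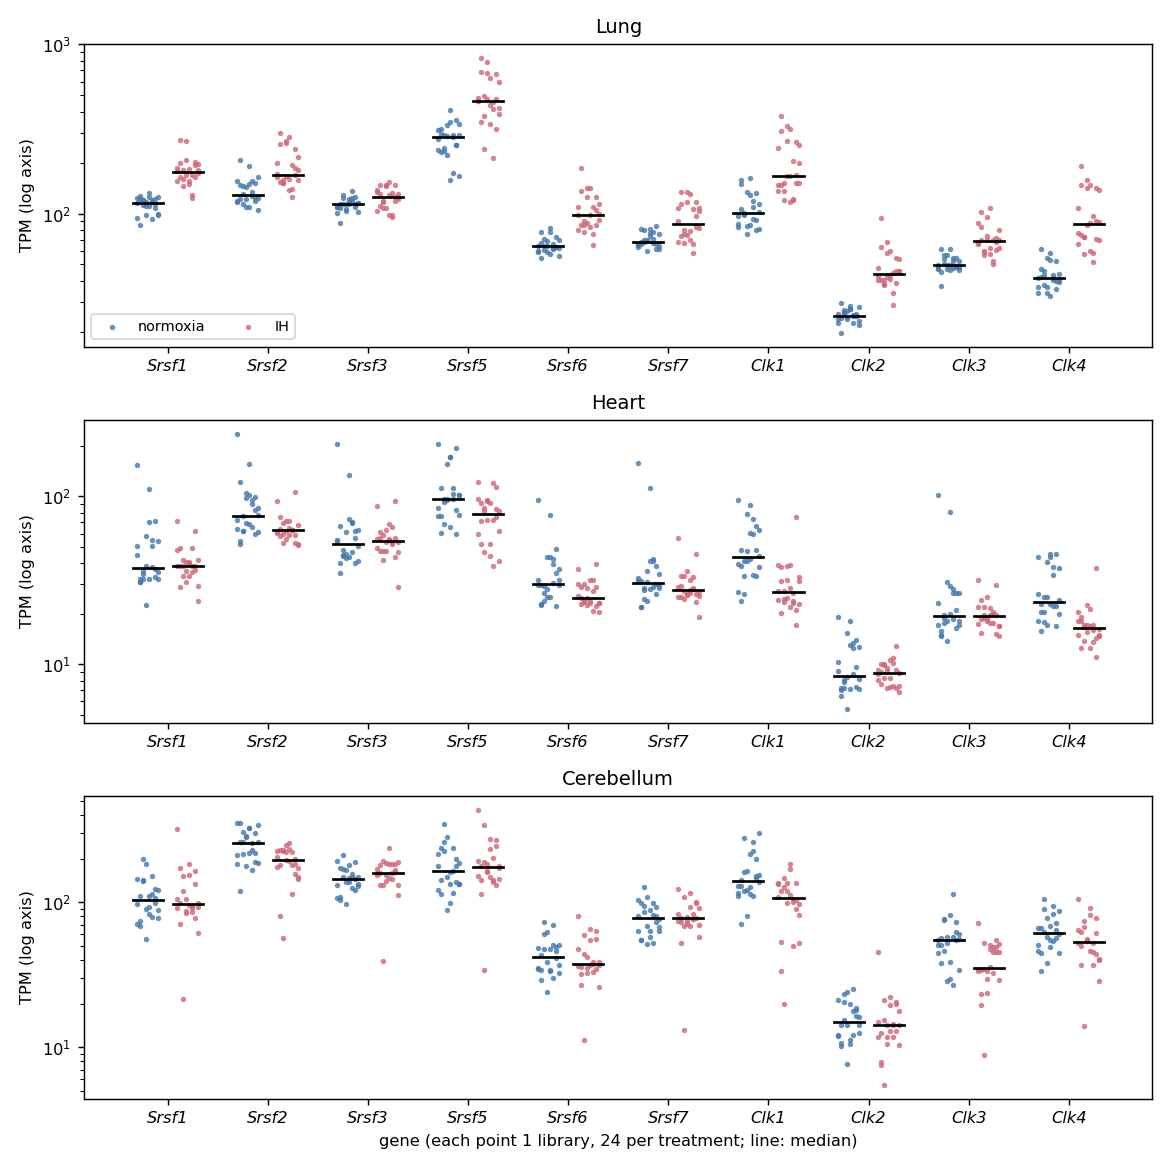
TPM of each gene (log axis) in lung, heart and cerebellum, with 1 point per library, 24 in normoxia and 24 after IH, and a line at the median. In the lung Clk2, Srsf1 and Clk4 after IH lie almost wholly above normoxia, in the heart Clk1 and Clk4 lie lower after IH, and in the cerebellum 1 library after IH lies far below the rest for most genes.

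The rise in the lung was not the same in all replicate numbers, which hold 8 libraries per treatment each. The change of Clk4 was 1.32 ± 0.15 within replicate 1, 0.89 ± 0.18 within replicate 2 and 0.13 ± 0.09 within replicate 3 (SE). For Clk1 it was 1.09, 0.59 and -0.14, and for Srsf5 0.95, 0.50 and -0.05. Clk2 and Srsf1 rose within each number, Clk2 by 0.76, 0.61 and 0.34 and Srsf1 by 0.41, 0.39 and 0.21, each past the threshold. Without replicate 1, 4 of the 10 genes passed, Clk2, Clk4, Srsf1 and Srsf3. The number of genes above 0 followed the same split: after IH it averaged 26099 in replicate 1, 26123 in replicate 2 and 24143 in replicate 3, against 22261, 22916 and 22904 in normoxia. With the log2 of that number as a term in the fit, the change was -0.01 for Clk4 (adjusted p = 0.942) and -0.20 for Srsf5 (adjusted p = 0.196). In that fit 5 of the 10 genes were called, beside 8103 of all 15426 genes tested. Of the 5, 4 fell: Srsf2 by 0.43 (adjusted p = 9.76e-05), Srsf7 by 0.37 (adjusted p = 0.000162), Srsf3 by 0.34 (adjusted p = 7.72e-06) and Clk1 by 0.29 (adjusted p = 0.0440). Clk2 alone rose, by 0.20 (adjusted p = 0.0139). Summed lung markers ranged from 136272 to 264341 TPM in normoxia and from 34723 to 205406 after IH, and the 6 leukocyte markers from 4546 to 11016 and from 5985 to 12147. The part of these values in the result was not tested. The 1:30 library of replicate 2 after IH held the highest value for 8 of the 10 genes, and without it Clk4 rose by 0.76.

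**Figure D3:**
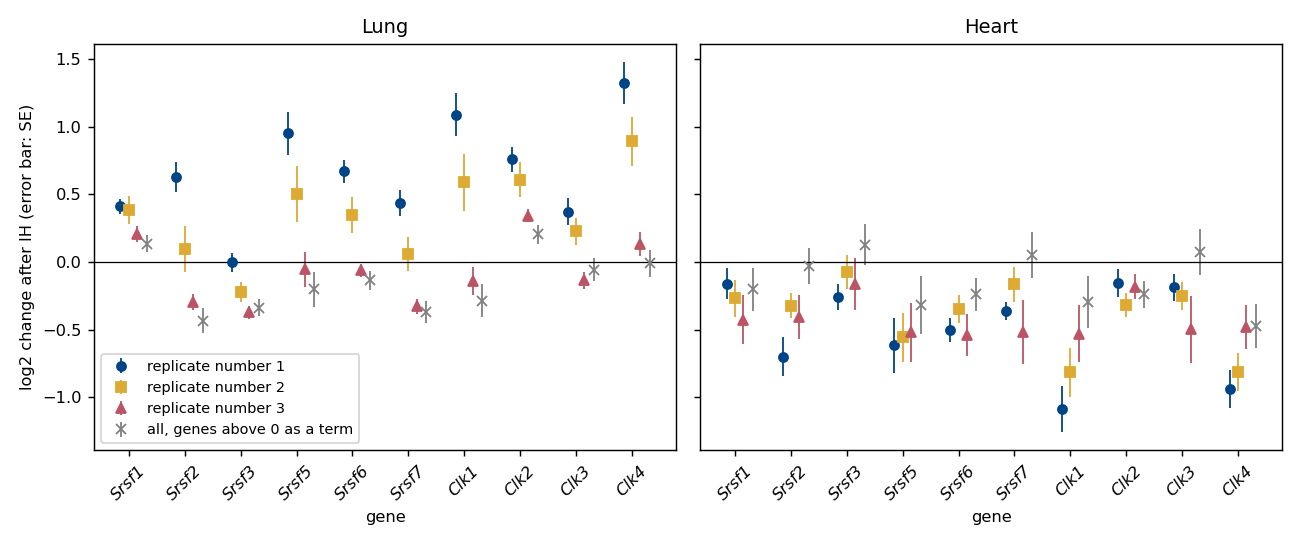
Log2 change after IH on scaled TPM within each replicate number (8 against 8 libraries) and over all libraries with the number of genes above 0 as a term, in lung and heart, with bars of 1 SE. In the lung the points of replicate 3 lie lowest and near those of the fit with that term, and in the heart the points within all 3 numbers lie below 0.

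In the heart, all 10 genes had lower scaled values after IH, and 9 of 10 passed the test, Srsf3 being the exception (-0.18 ± 0.09, adjusted p = 0.0916). Of all 12779 genes tested in the heart, 17.3% fell and 28% rose, 45.2% in all. Clk1 and Clk4 also passed the 1.5-fold change, beside 2.95% of all genes. The median change of the 10 genes was -0.42, against 0.04 over all genes.

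Clk1 in the heart ranged from 23.9 to 95.2 TPM in normoxia (median 43.3) and from 17.2 to 75.1 after IH (median 26.9). The ranges overlapped, with 23 of 24 IH libraries below the normoxia median and 7 below all of normoxia, and the log2 change was -0.82 ± 0.12 (SE, n = 24, limma adjusted p = 2.84e-07), a 1.77-fold fall. Clk4 ranged from 15.8 to 45.5 TPM (median 23.6) and from 11.1 to 37.6 (median 16.48), with 10 of 24 IH libraries below all of normoxia and a change of -0.75 ± 0.09 (adjusted p = 1.35e-08). Srsf5 went from a median of 96.3 TPM (60.04 to 204) to 78.1 TPM (38.3 to 122), a change of -0.58 ± 0.12 (adjusted p = 0.000127). Srsf2 and Srsf6 changed by -0.49 and -0.47 (adjusted p = 8.49e-06 and 7.44e-07). The remaining called genes were Srsf7 (-0.36), Clk3 (-0.32), Srsf1 (-0.30) and Clk2 (-0.23). For these 4 the medians of TPM as deposited lay close together, Srsf1 at 37.6 in normoxia and 38.6 after IH and Clk2 at 8.57 and 8.93, and none of the 4 passed without the scaling, where the median of all heart genes moved from 0.04 to 0.15.

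The 7:30 and 19:30 normoxia libraries of replicate 3 stood out in the heart for most of the genes. The 7:30 library held 158 TPM of Srsf7 and 103 of Clk3 and the 19:30 library 112 and 80.3, where the medians of the group were 30.5 and 19.3. Both held lung markers, at 1562 and 373 TPM against a median of 1.03 TPM over the 24 normoxia libraries, although the highest sum, 2002 TPM, was in the 19:30 library of replicate 2. Their leukocyte markers summed to 1136 and 756 TPM against a median of 435. Without both, the same 9 genes passed the test, Clk1 with -0.79, Clk4 with -0.74, Srsf7 with -0.24 and Clk3 with -0.20. The number of genes above 0 was lower after IH within each replicate number of the heart, by means of 25691 against 20804, 24181 against 21804 and 25500 against 21733, and the change of Clk4 was -0.94, -0.81 and -0.48 there. With that number as a term none of the 10 passed (Clk4 -0.47, Clk1 -0.30), beside 257 of all genes that passed by that fit. The median sum of the 3 endothelial markers was 131 TPM in normoxia and 199 after IH, and that of the leukocyte markers 435 and 504. The part of these values in the result was not tested.

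In the cerebellum, 3 of the 10 genes fell after IH, Clk1, Clk3 and Srsf2, and 7 did not pass. Of all 14892 genes tested, 5.24% fell and 9.76% rose, 15% in all. Clk1 alone passed the 1.5-fold change too, beside 2.64% of all genes. Clk1 ranged from 70.5 to 299 TPM in normoxia (median 140) and from 20.0 to 182 after IH (median 108), a change of -0.63 ± 0.15 (adjusted p = 0.00304). Clk3 went from a median of 54.8 TPM (27.0 to 115) to 35.2 TPM (8.88 to 71.8), with 22 of 24 IH libraries below the normoxia median and a change of -0.51 ± 0.11 (adjusted p = 0.000879). Srsf2 ranged from 120 to 354 TPM in normoxia (median 258) and from 56.7 to 256 after IH (median 195). All 24 IH libraries lay below the normoxia median of Srsf2, and the change was -0.44 ± 0.12 (adjusted p = 0.00945). The changes of the other genes lay between -0.23 (Clk4, adjusted p = 0.123) and 0.09 (Srsf3, adjusted p = 0.477).

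The cerebellar library labelled IH, 1:30, replicate 3, with its heart markers, held the lowest value of all 10 genes among the IH libraries. Without it the changes were -0.58 for Clk1, -0.47 for Clk3 and -0.41 for Srsf2, and Clk1 no longer passed the 1.5-fold change. Without that and the 4 others with a mean r under 0.9 they were -0.54, -0.48 and -0.32, each past the adjusted threshold. Within replicate numbers, Srsf2 changed by -0.95, -0.38 and 0.01 in replicates 1, 2 and 3, so replicate 3 did not share the fall. Without replicate 1 none of the 3 passed, with changes of -0.54 (Clk1, adjusted p = 0.104), -0.48 (Clk3, adjusted p = 0.0573) and -0.18 (Srsf2, adjusted p = 0.523). Without replicate 2 none passed either, with -0.57 (adjusted p = 0.182), -0.48 (adjusted p = 0.140) and -0.47 (adjusted p = 0.243).

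**Figure D4:**
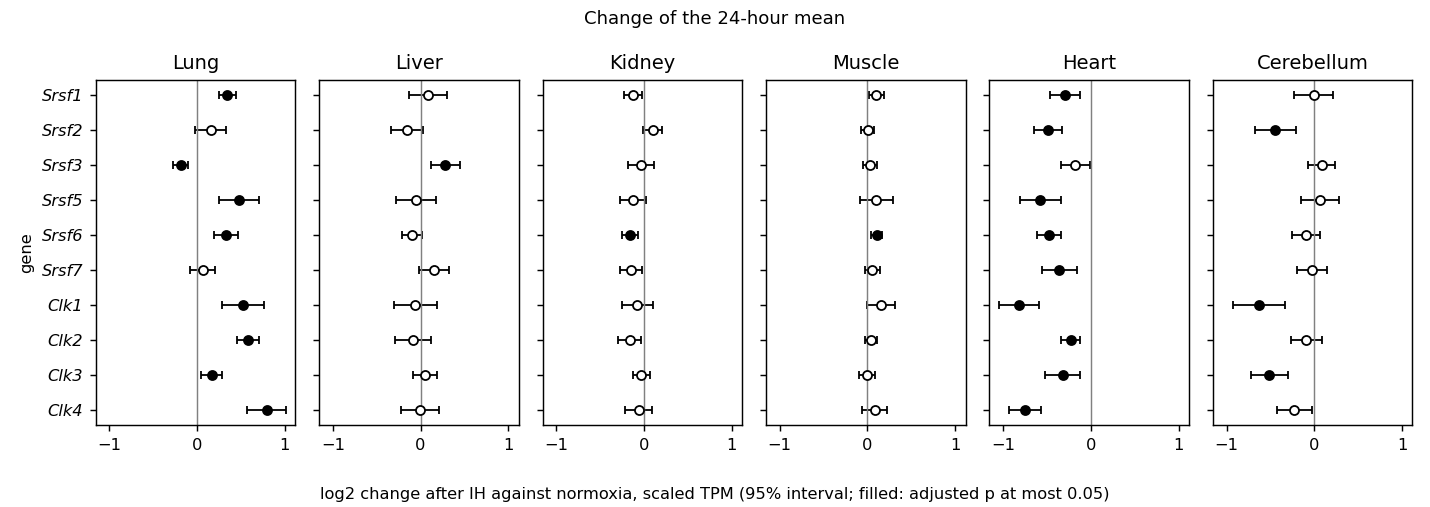
Log2 change of the 24-hour mean after IH against normoxia on scaled TPM, by gene and tissue, with 95% intervals; filled points have an adjusted p of at most 0.05. Values lie mostly to the right of 0 in the lung, to the left for all 10 genes in the heart, and near 0 in the liver, kidney and muscle.

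In the liver, kidney and muscle, 1 of the 10 genes passed in each. Srsf3 rose in the liver (0.28 ± 0.08, adjusted p = 0.0118), from a median of 26.9 TPM (20.0 to 43.9) to 32.3 TPM (22.9 to 42.7). In the liver 24.2% of all 11334 genes passed, 10.9% upwards and 13.3% downwards. Srsf6 fell in the kidney (-0.16 ± 0.05, adjusted p = 0.0136), with medians of 53.9 and 46.0 TPM, where 19.8% of all genes passed (8.25% up, 11.5% down). It did not pass without replicate 3 (-0.12, adjusted p = 0.180), where Srsf1 passed in its place (-0.25, adjusted p = 0.00268), or without the scaling (adjusted p = 0.0802). Srsf6 rose in the muscle (0.11 ± 0.03, adjusted p = 0.0331), with medians of 28.95 and 33.3 TPM, where 10.4% of all genes passed (5.48% up, 4.89% down). It did not pass without replicate 1 (0.099, adjusted p = 0.143), where Srsf1 passed instead (0.16, adjusted p = 0.0183), or without replicate 2 (0.056, adjusted p = 0.580), and with no minimum on TPM none of the 10 passed. None passed the 1.5-fold change in these tissues, where it was passed by 3.65%, 0.783% and 0.374% of all genes. At an unadjusted p of at most 0.05, counts were 1 of 10 in the liver, 4 in the kidney and 2 in the muscle. Of all genes, 4195 of 11334, 4264 of 12902 and 3063 of 12824 passed in these tissues. For Clk4 the change had a 95% interval of -0.06 to 0.22 in muscle, and the liver gave -0.22 to 0.21. Without the liver library that held heart transcripts, Srsf3 rose by 0.26. Within replicates 1, 2 and 3 its change in the liver was 0.35, 0.55 and -0.08. It did not pass there without replicate 1, without replicate 2 or without the scaling.

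The change in the lung was then set against that in each other tissue by an interaction term. Libraries of both tissues were scaled together for this. A difference therefore need not equal the lung change minus the other change as given above. For Srsf3 against the liver it was -0.58, where the separate fits gave -0.19 in the lung and 0.28 in the liver. These 5 comparisons share the lung libraries. Against the heart, 9 of the 10 genes differed, beside 67% of all genes tested: the difference (lung change minus heart change) was 1.498 ± 0.15 for Clk4 (SE, adjusted p = 3.28e-15), 1.30 ± 0.17 for Clk1 and 1.00 ± 0.17 for Srsf5. Srsf3 was the gene that did not pass (-0.06 ± 0.09). Against the cerebellum, 7 of 10 differed (53.4% of all genes), with Clk1 at 1.07 ± 0.19 and Srsf3 at -0.36 ± 0.09. The Srsf3 difference rests on the scaling, and without it was 0.037 (adjusted p = 0.832). Against the kidney 7 of 10 differed (64.4% of all genes), against the liver 6 (56.2%) and against the muscle 6 (58.9%). Clk1, Clk2, Clk4 and Srsf6 differed from the lung in all 5 comparisons, with the lung higher. Without the libraries of a mean r under 0.9, Clk1 (0.29, adjusted p = 0.0690) and Srsf6 (0.15, adjusted p = 0.0635) no longer differed between lung and muscle. With the number of genes above 0 as a term, 4 genes differed against the heart, 3 against the cerebellum, 4 against the kidney, 4 against the liver and 3 against the muscle. Against the liver the lung change was the lower in each: Clk3 (-0.24), Srsf2 (-0.36), Srsf3 (-0.63) and Srsf7 (-0.41). Against the kidney it was lower for Srsf2 (-0.41) and Srsf3 (-0.32) and higher for Clk2 (0.39) and Srsf1 (0.31). It was also lower for Srsf3 against the muscle (-0.32) and for Srsf2 (-0.45) and Srsf7 (-0.46) against the heart. In that fit Clk2 differed in 4 of the 5 comparisons (0.39 against the heart, 0.094 against the liver, where it did not pass), Clk4 differed from the muscle alone (0.35), and neither Clk1 nor Srsf6 passed in any. The shares of all genes with that term are not given here. In the main fit, without that term, Srsf7 passed against the heart alone. Whether the 5 differences differ from each other was not tested.

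Over the day, 4 rhythms passed the test among 120 of gene, tissue and treatment, and 3 of the 4 belonged to Srsf5. The test combined a rank test against 24-hour cosines with a Lomb-Scargle test. Srsf5 passed in the lung in normoxia (adjusted p = 0.0269), in the muscle in normoxia (adjusted p = 0.00501) and in the heart after IH (adjusted p = 0.0242), and Srsf1 in the lung in normoxia (adjusted p = 0.0289). None of the 4 passed without replicate 1 (adjusted p of 0.616, 0.0945 and 0.361 for Srsf5 in the lung, muscle and heart, and 0.0860 for Srsf1). Srsf5 in the muscle also failed without replicate 2 (0.0634) and without replicate 3 (0.256). In the lung it failed without replicate 2 (1), in the heart without replicate 2 (0.198), and Srsf1 failed without replicate 3 (1). Of all genes, 10.4% passed in the lung in normoxia and 12.9% after IH, 4.26% and 8.97% in the muscle, 1.06% and 4.97% in the heart, 9.17% in the liver after IH (2393 of 14482 genes in normoxia), 17.5% and 4.42% in the kidney, and 7.5% and 0.0795% in the cerebellum. By the rank test alone and by the Lomb-Scargle test alone, 0 of the 120 passed, with an adjusted p for Srsf5 in the muscle of 0.213 and 0.0955. At an unadjusted p of at most 0.05, 6 of the 120 passed by the rank test and 11 by the Lomb-Scargle test. In data simulated from the liver with 200 rhythmic genes among 12944, the combined test recovered 186 and also called 114 genes without a rhythm, where the rank test alone called 7 of those.

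The shape of Srsf5 recurred beyond the called rhythms. In the muscle in normoxia it averaged 116 ± 4.85 TPM at 4:30 and 72.9 ± 8.67 at 13:30 (SD, n = 3), and the fitted amplitude was 17.2 ± 3.96 TPM (SE), or 18.7% of the mean, with a peak at 6.3 h. In the lung in normoxia the means were 329 ± 70.4 TPM at 4:30 and 195 ± 50.7 at 13:30, with an amplitude of 19.1% and a peak at 3.4 h. In the heart after IH the amplitude was 26.9% and the peak at 6.2 h, with the lowest mean at 16:30. The lowest of the 8 means fell at 13:30 in 9 of the 12 pairs of tissue and treatment, in the lung, liver, kidney and muscle under both treatments and in the heart in normoxia. Per the study's methods the organs of a time point and treatment came from the same mice, so these pairs are not independent. How many of all genes are lowest at 13:30 was not counted. Of the 3 liver libraries at 13:30 after IH, 1 is the library with heart markers (36.7 TPM of Srsf5), and the lowest was replicate 1 with 27.4 TPM. In the cerebellum the lowest means were at 4:30 in normoxia and at 16:30 after IH, so it did not share that time. Fitted amplitudes of Srsf5 ran from 10.6% to 26.9% of the mean over the 12 pairs.

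**Figure D5:**
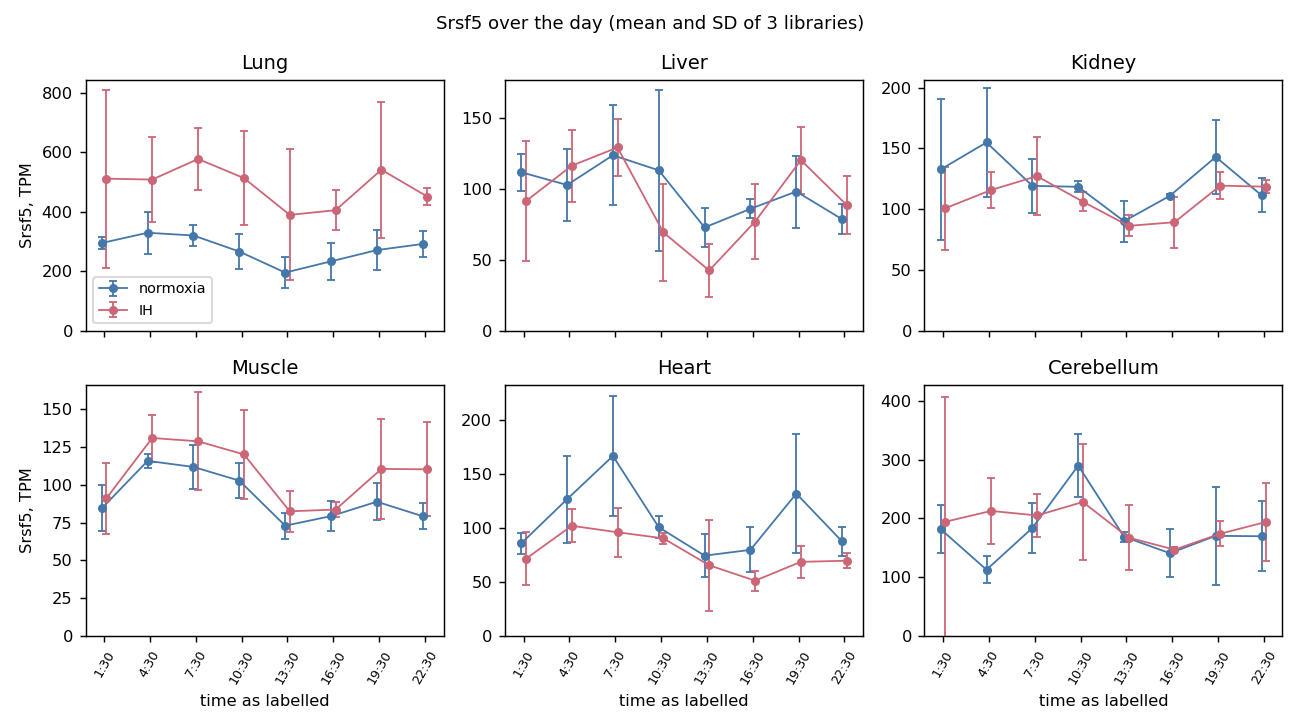
Mean TPM of Srsf5 at each labelled time in normoxia and after IH, with bars of 1 SD over 3 libraries and the vertical axis starting at 0, where 1 bar in the cerebellum is cut. In the lung, liver, kidney and muscle the curve of each treatment is lowest at 13:30.

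The other genes had no common low point of that kind. Srsf7 had its highest mean at 13:30 in 7 of the 12 pairs and Srsf3 in 5, which is where Srsf5 was lowest. Clk1 and Clk4 had their lowest mean at 1:30 in 5 of the 12 pairs each. Single 1:30 libraries low for most genes enter these means. In the muscle in normoxia that of replicate 2 held the lowest value for 8 of the 10 genes. In the kidney after IH that of replicate 1 did so for 7. For Clk1 the 5 pairs include the cerebellum after IH, where the library with heart markers was lowest for all 10. Srsf1 in the lung in normoxia peaked at 15.7 h with an amplitude of 8.33% of its mean. Clk3 in the liver in normoxia had an adjusted p of 0.0501 (amplitude 10.9%, peak at 16.3 h). Amplitudes were compared for Srsf5 (lung, muscle, heart) and Srsf1 (lung) between treatments, and 0 of these 4 passed (adjusted p of at least 0.831). Only genes called rhythmic in at least 1 treatment of the tissue were compared. Of these, 7 of 3903 passed in the lung (0.179%), 0 of 1691 in the muscle and 0 of 831 in the heart. For Srsf5 in the muscle the difference (IH minus normoxia) was -0.07 ± 8.52 TPM (SE), beside an amplitude of 17.2 TPM in normoxia.

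Over the 96 means of tissue, treatment and time, after removal of each tissue's and treatment's own mean, Pearson correlations between the 10 genes ran from -0.14 to 0.78. These correlations are a description, since genes of one library share its composition and quality. Clk1 and Clk4 had the highest r of all 45 pairs (0.78), and the median was 0.57 over the 6 kinase pairs and 0.41 over the 15 SR pairs. Srsf3 with Srsf7 (0.70) and Srsf6 with Srsf7 (0.68) were the closest SR pairs. Srsf5 stood aside, with r from -0.14 (Srsf7) to 0.29 (Clk4). Among 5483 genes of at least 5 TPM in every tissue, those like Srsf5 included Cirbp (0.82), a cold-inducible RNA-binding protein, and Zbtb22 (0.74). Those most like Clk4 were Ccnl2 (0.82), a cyclin of nuclear speckles, Ankrd16 and Clk1 (both 0.78). Clk1 was most like Srsf11 (0.79), Ccnl2 and Clk4 (both 0.78), and Clk2 like Paxbp1 (0.79), Akap8 and Zfc3h1 (both 0.74). The nearest to Srsf1 were Hnrnpu (0.72), Pnpla6 (0.69) and Maz (0.67), and to Srsf2 Upf3b (0.75), Plekhj1 and Vps16 (both 0.73). For Srsf3 they were Srsf7, Ssna1 (0.66) and Snrpd1 (0.59), for Srsf6 Ints11, Srsf7 (both 0.68) and Zfp410 (0.67), for Srsf7 Luc7l (0.73), Zfp410 (0.72) and Srsf3, and for Clk3 Rexo4 (0.73), Ndrg3 and Cdkn2aipnl (both 0.70).

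A list of 49 other splicing and decay genes gives the setting of these changes. In the lung, 48 were tested, 23 rose and 18 fell, where 28.9% of all genes rose and 41.5% fell. Of the other SR and SR-related genes, 14 were tested there, and 9 rose and 4 fell (median 0.28). Of the 16 hnRNP and PTB genes, many of which act against SR proteins at splice sites, 5 rose and 10 fell (median -0.20). The 2 largest rises were Srrm2, a scaffold of nuclear speckles (1.22 ± 0.11, from 115 ± 24.6 to 346 ± 134 TPM, adjusted p = 3.69e-13), and Snrnp70, a U1 protein (0.70 ± 0.10, adjusted p = 4.28e-08). The largest falls were Hnrnpab (-0.65) and Hnrnpf (-0.52). In the heart, 2 of 48 rose and 23 fell, beside 28% and 17.3% of all genes. There the other SR genes gave 9 falls and 0 rises of 14 tested (median -0.33), and the hnRNP and PTB genes 6 falls (median -0.12). Srrm2 fell most (-0.73 ± 0.11, adjusted p = 1e-06), followed by Srsf11 (-0.61), and Dyrk1a (0.32), a kinase that phosphorylates splicing factors, and Smg8 (0.27), a regulator of the decay kinase Smg1, rose. With the number of genes above 0 as a term, 257 of all heart genes passed, against 5780 without it. In the lung 8103 of all genes passed with that term and 10864 without it. The list was not counted with that term or within replicate numbers.

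The counts in the other tissues stand beside lower shares of all genes. In the liver 1 rose and 17 fell (10.9% and 13.3% of all genes), with Srsf10 up (0.33), the decay helicase Upf1 down most (-0.55) and then the speckle protein Son (-0.50). In the kidney 6 rose and 4 fell (8.25% and 11.5% of all genes), with Upf1 (0.33) and Son (0.25) up and Hnrnpk (-0.29) and Srsf10 (-0.20) down. In the muscle 7 rose and 2 fell (5.48% and 4.89%), led by Smg1 (0.27) and Dyrk1a (0.23), with Upf3b (-0.19) and Rnps1 (-0.10) down. In the cerebellum 4 rose and 2 fell (9.76% and 5.24%), with Srsf9 (0.36) and Upf3a (0.30) up and Prpf4b (-0.57), another kinase of splicing factors, and Son (-0.34) down. The kinases Srpk1, Srpk2, Srpk3, Dyrk1a and Prpf4b and the importer Tnpo3 gave 4 rises and 1 fall in the lung, and 1 rise and 2 falls in the heart.

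The number of list genes called rhythmic ran from 0 of 48 genes in the heart in normoxia, and 0 of 49 in the cerebellum after IH, to 12 of 48 in the liver in normoxia. Rbm3, a cold-inducible RNA-binding protein, passed in all tissues in at least 1 treatment, and in the lung in normoxia it had an amplitude of 32.6% of its mean, a peak at 7.1 h and an adjusted p of 9.07e-08. Cirbp peaked at 4.3 h in the lung in normoxia (27.6%), at 5.6 h in the liver in normoxia (24.8%), at 8.1 h in the cerebellum in normoxia (30.5%) and at 7.8 h in the heart after IH (22.9%). The called Srsf5 rhythms of the lung in normoxia and the heart after IH peaked at 3.4 h and 6.2 h. Tra2a, an SR-like splicing activator, passed in the liver in normoxia (31.5%, peak at 20.0 h) and after IH (36.3%, peak at 22.4 h), and in the kidney in normoxia (25.8%, 17.2 h) and after IH (22.7%, 18.0 h). Further genes of large amplitude were Smg6 in the cerebellum in normoxia (49.1%), Srpk3 in the lung in normoxia (28.0%), Ptbp2 in the liver after IH (26.8%), Hnrnpc in the lung after IH (19.2%), the kidney in normoxia (16.0%) and the muscle after IH (11.3%), Hnrnpa3 in the kidney (17.3%) and muscle (11.6%) after IH, Hnrnph3 in the heart after IH (15.6%) and Hnrnpa1 in the lung after IH (12.4%).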

How the data were processed

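Gene-level TPM in 288 libraries were analysed as deposited. Per the labels and the study's methods, the authors prepared poly(A) RNA libraries, quantified transcripts with Kallisto against Ensembl release 102 (mouse, mm10) and summed them to genes to make these TPM. The submitters' processing notes also name bcl2fastq, FastQC 0.11.3 and DESeq2. Without read counts, counting noise could not be told apart from other spread between libraries. The precision is limited by that noise as well as by the number of libraries. The paper gives a median of mapped reads over its samples, but the depth of single libraries is unknown here. The organs came from shared mice per the study's methods, but the labels do not tie libraries to animals, so libraries were treated as independent and p-values measure the spread between them.

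Groups came from the labels. Libraries were scaled by the median of ratios, log2(TPM + 0.5) was computed, and changes were tested 2-sided with limma 3.58.1 in R 4.3.3 (intensity trend, treatment only, genes averaging 1 TPM or more, Benjamini-Hochberg adjusted p of at most 0.05, the count past 1.5-fold given beside it). The same model served tissue levels, over all 144 normoxia libraries, and interactions, with the libraries of both tissues scaled together. A fold change on this scale understates that of low genes. Rhythm used re-implemented rank and Lomb-Scargle tests at 24 hours on TPM as deposited (genes reaching 1 TPM), combined by the Fisher method, and amplitudes used cosine fits with Python 3.11.15 and scipy 1.17.1. The fits were tested on simulated data: of 200 genes changed 1.5-fold, 178 were recovered in the lung with 8 false calls and 184 in the heart with 13. Annotation was GENCODE release 21, and promoters came from RefSeq (GRCm38.p6).

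All 10 genes are named in every tissue. From the list, the 2 largest called rises and falls per tissue, the 3 rhythmic genes of largest relative amplitude, and the 3 genes most like each member are named, except 1 gene that is not reported here. The members and lists were chosen with earlier results of these data known. The alternatives were another pseudocount, no minimum, TPM without scaling, the number of genes above 0 as a term, fits within and without each replicate number, a replicate block, and other rhythm tests. Leaving out all libraries of a mean correlation under 0.9, for changes, tissue levels and interactions, was added after seeing the data.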

Additional observations from a re-analysis of the deposited data

Results flagged for a closer look

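The change after IH in the lung differed from that in another tissue, by the limma interaction term, in 35 of 50 comparisons of gene and tissue. Of all genes tested, 53.4% (against the cerebellum) to 67% (against the heart) differed. The differences (lung change minus other change, log2 TPM with both tissues scaled together) share the lung libraries. Against the heart they were 1.30 for Clk1, 0.76 for Clk2, 0.44 for Clk3, 1.498 for Clk4, 0.59 for Srsf1, 0.59 for Srsf2, 1.00 for Srsf5, 0.75 for Srsf6 and 0.38 for Srsf7. Against the cerebellum they were 1.07 for Clk1, 0.59 for Clk2, 0.59 for Clk3, 0.94 for Clk4, 0.52 for Srsf2, -0.36 for Srsf3 and 0.34 for Srsf6. Against the kidney they were 0.54 for Clk1, 0.68 for Clk2, 0.79 for Clk4, 0.41 for Srsf1, -0.21 for Srsf3, 0.55 for Srsf5 and 0.43 for Srsf6. Against the liver they were 0.47 for Clk1, 0.56 for Clk2, 0.69 for Clk4, -0.58 for Srsf3, 0.41 for Srsf5 and 0.32 for Srsf6. Against the muscle they were 0.32 for Clk1, 0.49 for Clk2, 0.66 for Clk4, 0.20 for Srsf1, -0.26 for Srsf3 and 0.18 for Srsf6. The Srsf3 differences rest on the scaling, and without it none of those listed passed. They were then -0.04 against the liver (adjusted p = 0.744) and -0.009 against the muscle (adjusted p = 0.935). Against the kidney the value was 0.19 (adjusted p = 0.0875) and against the cerebellum 0.037 (adjusted p = 0.832).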

How the results depend on the processing

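Counts of the 10 genes called are given by setting, and the cause of each move was not tested. Without scaling, changed genes numbered 0 (liver), 0 (kidney), 4 (muscle) and 5 (heart), 6 passed 1.5-fold in the lung, and tissue contrasts gave 8 (lung), 8 (liver), 0 (kidney), 3 (muscle), 1 (heart) and 7 (cerebellum). With the number of genes above 0 as a term, 5 were called in the lung (4 falls, 1 rise), 5 in the kidney and 0 in the heart. Of all genes, 8103 of 15426, 3107 of 12902 and 257 of 12779 were called in these tissues with that term. With it 0 passed 1.5-fold in the lung, heart and cerebellum, and differences from the lung numbered 4 (kidney), 3 (muscle), 4 (heart) and 3 (cerebellum). Within replicates 1, 2 and 3, 0, 2 and 0 were called in the liver and 0, 2 and 2 in the kidney, and 6, 3 and 0 passed 1.5-fold in the lung. Within replicate 1 the muscle gave 0 and the cerebellum 1, with 4 past 1.5-fold in the heart. Within replicate 2 the heart gave 5. Within replicate 3 the lung gave 5, and the muscle, heart and cerebellum 0, with 0 past 1.5-fold in the heart and cerebellum. A pseudocount of 0.1 gave 2 past 1.5-fold in the lung, and no minimum gave 0 in the muscle. Without the library of lowest correlation the kidney gave 2 and the cerebellum 0 past 1.5-fold, also 0 without all libraries under 0.9.

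Leaving out 1 replicate number at a time gave 4 to 9 changed genes in the lung (4 without replicate 1), 0 to 2 in the liver, 1 to 3 in the kidney (3 without replicate 2), 0 to 2 in the muscle and 0 to 3 in the cerebellum. Past 1.5-fold it gave 0 to 4 in the lung and 0 to 2 in the cerebellum. Tissue contrasts gave 0 to 1 in the lung, 0 to 2 in the kidney and 1 to 2 in the muscle. Differences from the lung numbered 3 to 7 (liver) and 3 to 9 (muscle), and rhythms 2 to 4 (2 without replicate 2). The 4 called without replicate 1 are other pairs of gene and tissue, Srsf2 in the liver and Srsf6, Srsf7 and Clk3 in the kidney, all in normoxia. Rhythms numbered 0 by the rank test alone, 0 by the Lomb-Scargle test alone and 11 on the log2 scale.

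Same-numbered libraries did not deviate together in every pair (median r from -0.14 in the lung to 0.22 in the liver). With the replicate block 8 genes changed in the lung, 9 in the heart and 3 in the cerebellum, differences from the cerebellum numbered 8, and a cosine fit with the block gave 9 rhythms.

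Some signs turned. With the number of genes above 0 as a term, lung changes were -0.29 (Clk1), -0.056 (Clk3), -0.011 (Clk4), -0.43 (Srsf2), -0.20 (Srsf5), -0.13 (Srsf6) and -0.37 (Srsf7), and heart changes 0.075 (Clk3) and 0.054 (Srsf7). Within replicate 3, lung changes were -0.14 (Clk1), -0.14 (Clk3), -0.29 (Srsf2), -0.054 (Srsf5), -0.062 (Srsf6) and -0.33 (Srsf7), with -0.078 for Srsf3 in the liver and 0.012 for Srsf2 in the cerebellum. Without scaling, Srsf3 changed by 0.12 in the lung, levels against other tissues were 0.72 (Clk3), 0.91 (Srsf3) and 0.83 (Srsf6) in the lung and -0.846 (Clk3), -0.725 (Clk4) and -0.79 (Srsf2) in the liver, and differences were 0.34 (Srsf7, liver), 0.40 (Srsf2, kidney), 0.19 (Srsf3, kidney) and 0.037 (Srsf3, cerebellum). With the genes term, differences were -0.21 (Clk1), -0.24 (Clk3), -0.36 (Srsf2) and -0.089 (Srsf5) against the liver, -0.10 (Clk1) against the kidney, -0.029 (Clk1) against the muscle, -0.044 (Clk1), -0.16 (Clk3), -0.45 (Srsf2) and -0.463 (Srsf7) against the heart, and -0.025 (Srsf2) against the cerebellum. The depth of each library is unknown here, so no limit of detection can be given.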
